A study of Mus musculus with 8 samples.

Results

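*Slc39a8*, *Slc39a14*, *Slc39a4*, *Slc39a5*, *Slc39a10*, *Slc30a1*, *Slc30a10*, *Mt1* and *Mt2* are 9 zinc-handling genes, 9 of the 23467 genes measured by RNA-sequencing in 8 libraries of cultured mouse liver cells. They were chosen by name, and the choice rested on the measured values, because *Slc39a8* is among the genes with the largest increase in the libraries labelled L1L2_Alb. The difference between genotypes is therefore given for these 9 genes as a description, with no test. Hepatoblasts, the fetal progenitors of hepatocytes and of biliary epithelial cells (BECs), were isolated from fetal mouse livers at E14.5, on a mixed B6;129 background, and cultured as iHBs. Some cultures were differentiated to hepatocytes with the cytokine Oncostatin M at 12.5 ng/ml for 5 days per the labels (iHPs), and others to BECs on Matrigel for 14 days (iBECs). Control cells are labelled wild type. L1L2_Alb cells are labelled Lats1-/-;Lats2f/fl;Alb-cre, so that *Lats1* is lost in every cell and *Lats2* only where the Albumin promoter drives Cre. Each of the 3 stages had 1 control library, and there was 1 L1L2_Alb library of iHBs, 2 of iHPs and 2 of iBECs.

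Zinc enters the cytosol from outside the cell or from organelles through the ZIP family (Slc39a genes) and leaves it through the ZnT family (Slc30a genes), while metallothioneins are small cysteine-rich proteins that bind zinc and copper in the cytosol. *Slc39a8* (ZIP8) and *Slc39a14* (ZIP14) are closely related plasma membrane carriers that also take up manganese, iron and cadmium, and *Slc39a14* is the importer through which the liver takes up zinc in inflammation. When zinc is plentiful, the metal-responsive transcription factor *Mtf1* binds metal response elements in DNA and activates *Mt1*, *Mt2* and *Slc30a1*, and in mouse cells it represses *Slc39a10*. LATS1 and LATS2 are the kinases of the Hippo pathway that inhibit YAP and TAZ, coactivators that reach DNA through TEAD factors.

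The promoter sequences of *Slc39a8* and of the 4 metallothionein genes are shown because *Slc39a8* chose the set and because *Mt1* and *Mt2*, and *Mt3* and *Mt4*, had like patterns over the libraries. Each is the 250 bases before the first listed start in RefSeq (build GRCm38.p6), read 5′ to 3′. Capitals mark the TEAD core (GGAATG, on either strand) in *Slc39a8* and the core of the metal response element (TGCACNC or TGCGCNC, on either strand) in the others.
Slc39a8, chr3:135825029-135825278, plus strand: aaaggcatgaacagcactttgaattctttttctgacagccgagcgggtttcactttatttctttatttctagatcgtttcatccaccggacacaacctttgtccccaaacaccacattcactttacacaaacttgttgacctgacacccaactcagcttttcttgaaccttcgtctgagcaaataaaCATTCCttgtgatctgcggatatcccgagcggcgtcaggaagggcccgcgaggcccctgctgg
Mt2, chr8:94172368-94172617, plus strand: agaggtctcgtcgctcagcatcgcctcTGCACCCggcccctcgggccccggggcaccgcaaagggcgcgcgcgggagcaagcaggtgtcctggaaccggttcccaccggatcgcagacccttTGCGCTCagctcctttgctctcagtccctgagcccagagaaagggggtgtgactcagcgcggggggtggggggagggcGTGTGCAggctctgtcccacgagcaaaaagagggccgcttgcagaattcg
Mt1, chr8:94178839-94179088, plus strand: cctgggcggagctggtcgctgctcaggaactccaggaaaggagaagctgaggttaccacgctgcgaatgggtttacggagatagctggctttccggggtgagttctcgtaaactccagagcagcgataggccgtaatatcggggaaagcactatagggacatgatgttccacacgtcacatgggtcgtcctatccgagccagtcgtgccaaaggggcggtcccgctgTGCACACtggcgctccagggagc
Mt3, chr8:94152357-94152606, plus strand: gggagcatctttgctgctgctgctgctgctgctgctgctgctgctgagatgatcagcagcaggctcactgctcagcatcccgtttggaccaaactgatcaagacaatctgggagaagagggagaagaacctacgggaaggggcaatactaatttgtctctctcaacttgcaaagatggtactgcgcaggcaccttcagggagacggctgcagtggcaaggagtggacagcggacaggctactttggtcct
Mt4, chr8:94136954-94137203, plus strand: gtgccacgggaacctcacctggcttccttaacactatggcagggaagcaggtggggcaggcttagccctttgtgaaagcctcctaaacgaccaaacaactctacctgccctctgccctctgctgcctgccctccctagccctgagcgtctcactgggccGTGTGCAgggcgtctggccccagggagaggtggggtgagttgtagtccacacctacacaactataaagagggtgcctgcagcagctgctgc
Of 32851 such windows of 250 bases, 12.6% held the TEAD core and 21.4% held at least 1 metal response element core. The first *Slc39a8* window held 1 TEAD core and 0 metal response element cores, and the window of its other start held 0 and 1. *Mt2* held 3 metal response element cores, a number reached in 1.26% of the windows, *Mt1* and *Mt4* held 1 each, and *Mt3* held 0. *Slc30a10* held 3 matches, of which a pair overlapped on opposite strands, *Slc30a1* held 1, and *Slc39a5* held 1 in the first of its 2 windows. Both *Slc39a10* windows held 0, and *Slc39a14* and *Slc39a4* were not matched in the RefSeq promoter table. A match of these letters is a description of the sequence and not a measured binding site. The windows depend on the listed start, which was not checked against other evidence. Matches outside the 250 bases were not counted. A low count, such as that of *Mt1*, therefore does not show that a gene has few such elements.

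The values are RPKM, reads corrected for gene length and for library size, so that levels of different genes can be compared. The libraries held 18436865 to 33229075 reads, worked out from the steps between low values. The targeted genes went against the label: *Lats1* was above its stage control in 4 of 5 libraries labelled L1L2_Alb (7.12 to 22.7 RPKM, controls 5.38 to 11.2 RPKM) and *Lats2* in 5 of 5 (10.9 to 27.6 RPKM, controls 6.90 to 10.1 RPKM). A value over a whole gene does not show whether the deleted part is gone, so these values do not check the genotype, and directions below are those of the labels. The 6 hepatoblast and hepatocyte markers (*Alb*, *Afp*, *Ttr*, *Hnf4a*, *Apoa1*, *Dlk1*) were above 0 in every library, with a summed level of 7799 to 13241 RPKM. The 6 biliary markers summed to 6709 to 23475 RPKM in iBECs against 2482 to 3901 RPKM in iHBs and iHPs. Most of that sum was *Spp1*, whereas *Krt7*, *Krt19* and *Epcam* were lower in control iBEC (62.3, 83.7 and 2.96 RPKM) than in control iHB (400, 273 and 55.0 RPKM). The 5 neutrophil markers summed to 3134 to 13741 RPKM in the controls and 43.2 to 4387 RPKM in the libraries labelled L1L2_Alb, and the 6 mesenchymal markers to 1826 to 3532 and 541 to 2102 RPKM. The macrophage list summed to 593 to 2597 RPKM over the 8 libraries, and the erythroid and endothelial lists to at most 110 and 23.6 RPKM. In bulk RNA, fewer cells of a type and less RNA per cell cannot be told apart.

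*Slc39a8* was higher in each of the 5 libraries labelled L1L2_Alb than in any control. Control iHB held 10.1 RPKM and its counterpart 170 RPKM. Control iHP also held 10.1 RPKM, and replicates 1 and 2 of the iHP libraries labelled L1L2_Alb held 183 and 255 RPKM. In iBECs the control had the lowest value of all, 2.78 RPKM, while replicates 1 and 2 were at 55.0 and 92.1 RPKM. Each library labelled L1L2_Alb was thus 16.8-fold to 33.2-fold above the control of its own stage, the least in iHBs and the most in the second iBEC library. Across stages the log2 fold change was 4.18 (standard error 0.22, on log2(RPKM + 1), limma with stage as a block). Even the lowest value rests on 92.3 reads per kilobase. In order, the level went from control iBEC through control iHP and iHB, which were alike, to the iBEC, iHB and iHP libraries labelled L1L2_Alb, with the iHB value below both iHP values. The neutrophil marker sum was lower than its stage control in all 5 of those libraries and the mesenchymal sum in 4 of 5, the exception being the first iBEC library (2102 RPKM, control 1826 RPKM), and their part in the difference was not tested.

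**Figure D1:**
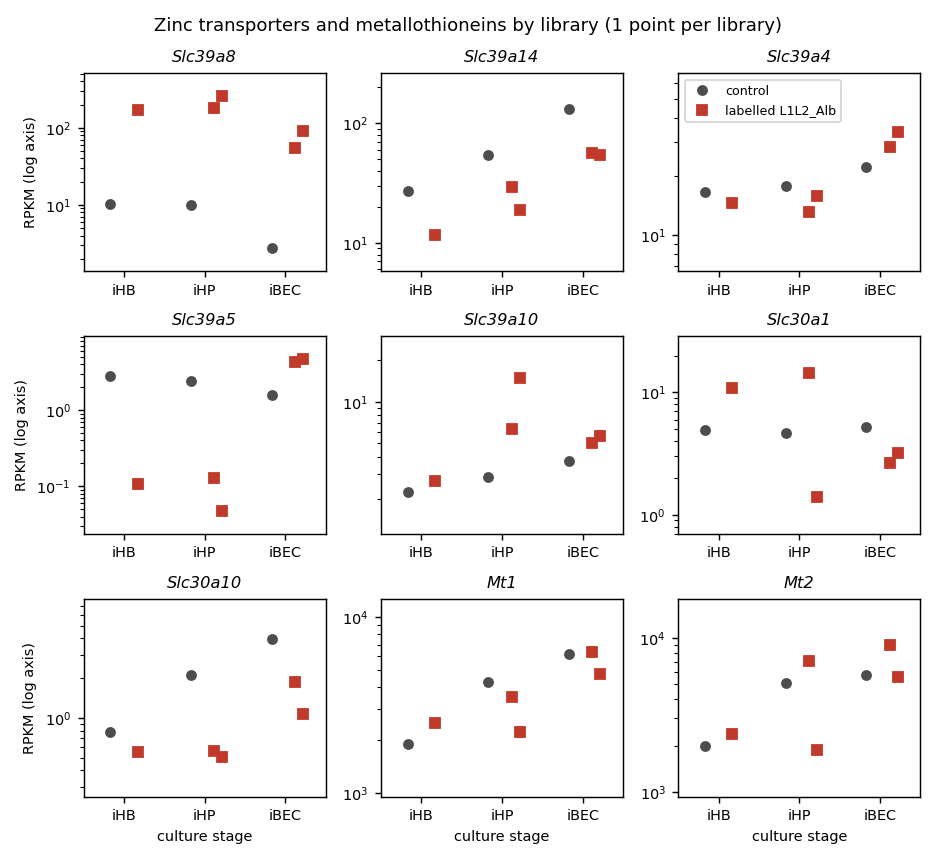
RPKM of each of the 9 genes in the 8 libraries, by culture stage, with 1 point per library, a log axis with its own range in each panel, dark circles for control and red squares for libraries labelled L1L2_Alb. *Slc39a8* is the only panel in which the red squares (55.0 to 255 RPKM) all lie above the dark circles (2.78 to 10.1 RPKM).

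The genotypes did not overlap for 1 of the 9 genes, *Slc39a8*, and did not overlap for 12.9% of all 13421 genes tested. Among the other importers and exporters they also did not overlap for *Slc39a6*, *Slc39a7*, *Slc30a4* and *Slc30a9*, higher in the libraries labelled L1L2_Alb, and for *Slc30a5*, lower in them. By the threshold of an adjusted p of 0.05, 9.57% of all genes passed in the genotype comparison, with 832 of them higher in the libraries labelled L1L2_Alb and 452 lower. The 9 genes are not read against this threshold, since their choice used this comparison.

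*Slc39a14* went the opposite way to its relative and was lower in all 5 libraries labelled L1L2_Alb than in the control of the same stage. Here and below, such counts are not of 5 separate comparisons, since the iHP pair and the iBEC pair each share 1 control. The share of all genes that lay on 1 side in all 5 was not worked out. Control iHB held 27.0 RPKM and its counterpart 11.7 RPKM. Control iHP held 54.5 RPKM and replicates 1 and 2 held 29.1 and 18.8 RPKM. Control iBEC held 130 RPKM and replicates 1 and 2 held 56.0 and 54.0 RPKM. The genotypes separated within each stage and overlapped between stages, because the level also rose from iHB to iBEC in both genotypes. The log2 fold change across stages was -1.19 (standard error 0.18). The ratio of *Slc39a8* to *Slc39a14* was 0.0213 to 0.376 in the controls and 0.982 to 14.6 in the libraries labelled L1L2_Alb, a ratio that the choice of *Slc39a8* bears on.

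*Slc39a4* and *Slc39a10* differed less between genotypes than *Slc39a8* and *Slc39a14* on average across stages, with the largest differences of *Slc39a10* in iHPs. *Slc39a4*, the importer of the intestinal epithelium, was at 16.7, 18.0 and 22.2 RPKM in control iHB, iHP and iBEC and at 13.2 to 33.7 RPKM in the libraries labelled L1L2_Alb, with a log2 fold change of 0.01 (standard error 0.20). *Slc39a10*, another plasma membrane importer, was at 2.23, 2.86 and 3.72 RPKM in control iHB, iHP and iBEC. It was at 2.70 RPKM in the iHB library labelled L1L2_Alb, at 6.40 and 14.9 RPKM in the iHP libraries and at 5.02 and 5.67 RPKM in the iBEC libraries. It lay above the control of its stage in all 5, by a log2 fold change of 0.75 across stages (standard error 0.33).

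*Slc39a5*, an importer of the basolateral membrane in intestine and pancreas, had opposite orders in different stages. Control iHB held 2.78 RPKM and its counterpart 0.107 RPKM, and control iHP held 2.43 RPKM where replicates 1 and 2 held 0.129 and 0.048 RPKM. In iBECs the order was the other way, with 1.59 RPKM in the control and 4.26 and 4.67 RPKM in the replicates. The 3 low values rest on 1.02 to 3.07 reads per kilobase, so that they are near the limit of what these libraries can show. Across stages the log2 fold change was -0.69 (standard error 0.50), an average of opposite directions. It was -1.71 without iBECs, and -1.89 with a pseudocount of 0.1 in place of 1.

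The exporters differed in their pattern, with *Slc30a10* below its stage control throughout and *Slc30a1* on both sides of it. *Slc30a1* (ZnT1), the main zinc exporter of the plasma membrane, was at 4.92, 4.64 and 5.21 RPKM in control iHB, iHP and iBEC. It was at 10.97 RPKM in the iHB library labelled L1L2_Alb, at 14.4 and 1.40 RPKM in the iHP libraries, and at 2.67 and 3.21 RPKM in the iBEC libraries. These values lay on both sides of the narrow control range, and the log2 fold change was 0.08 (standard error 0.57). *Slc30a10*, which exports manganese, was low throughout, at 0.777, 2.10 and 3.98 RPKM in control iHB, iHP and iBEC, 129, 343 and 772 reads. It was at 0.555 RPKM in the iHB library labelled L1L2_Alb, at 0.558 and 0.507 RPKM in the iHP libraries and at 1.86 and 1.06 RPKM in the iBEC libraries, below its own stage control in 5 of 5 (log2 fold change -0.80, standard error 0.25).

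The metallothioneins *Mt1* and *Mt2* were the most abundant of the 9 genes and showed no common direction between genotypes. *Mt1* was at 1912, 4285 and 6184 RPKM in control iHB, iHP and iBEC, and at 2518 RPKM in the iHB library labelled L1L2_Alb, 3507 and 2242 RPKM in the iHP libraries and 6384 and 4746 RPKM in the iBEC libraries. *Mt2* was at 1973, 5097 and 5707 RPKM in the same controls, and at 2361 RPKM in the iHB library labelled L1L2_Alb, 7092 and 1868 RPKM in the iHP libraries and 8946 and 5580 RPKM in the iBEC libraries. The log2 fold changes were -0.18 for *Mt1* (standard error 0.30) and 0.01 for *Mt2* (standard error 0.45), with 2 and 3 of 5 libraries above their stage control. For *Mt2* the 95% interval ran from -1.03 to 1.04, so that a change of 2-fold either way was not excluded. The pair followed each other over the 8 libraries (Pearson r of log2 values 0.90, a description, since the libraries share stages and the genes are neighbours), with an *Mt1* to *Mt2* ratio of 0.494 to 1.20.

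The 2 iHP libraries labelled L1L2_Alb differed from each other in 4 genes named above as known *Mtf1* targets, a comparison made after their values were seen. Replicate 1 was above replicate 2 by 10.3-fold for *Slc30a1*, 3.80-fold for *Mt2* and 1.56-fold for *Mt1*, and below it for *Slc39a10*, of which replicate 2 held 2.33-fold more. Between these libraries 12.1% of the 13421 genes differed by more than 1 on the log2 scale, and *Slc30a1*, *Mt2* and *Slc39a10* were among them. So were *Mt3* and *Mt4*, which are not among the 4 genes named as targets. Replicate 1 held 2.65-fold more *Mt3* and 6.81-fold more *Mt4* than replicate 2. In the iBEC pair *Slc30a1*, *Mt2*, *Mt1* and *Slc39a10* differed by at most 1.60-fold. *Mtf1* RNA itself was at 4.82 and 5.81 RPKM in iHP replicates 1 and 2. With 1 library on each side there is no test of these differences, and they belong to the libraries and not to a condition.

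*Slc39a8* was also set against the summed level of its family, a sum of which it is a part. The 14 Slc39a genes summed to 272, 285 and 374 RPKM in control iHB, iHP and iBEC, and to 397 to 611 RPKM in the libraries labelled L1L2_Alb. *Slc39a8* made up 3.73%, 3.54% and 0.743% of that sum in the controls, where it ranked 8, 7 and 11 of the 14. It made up 34.1% in the iHB library labelled L1L2_Alb, 35.0% and 41.7% in the iHP libraries and 13.9% and 20.2% in the iBEC libraries, and it was the most abundant importer in the first 3 of these. Without *Slc39a8* the sum was 262 to 371 RPKM in the controls and 328 to 363 RPKM in the libraries labelled L1L2_Alb, with overlap from the iBECs. By stage it was 262 RPKM in control iHB against 328 RPKM, 275 RPKM in control iHP with 339 and 356 RPKM in the replicates, and 371 RPKM in control iBEC with 342 and 363 RPKM. *Slc39a7*, which releases zinc from the endoplasmic reticulum, was the most abundant importer in control iHB, control iHP and both iBEC libraries labelled L1L2_Alb. *Slc39a14*, with 34.9% of the sum, was the most abundant in control iBEC.

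**Figure D2:**
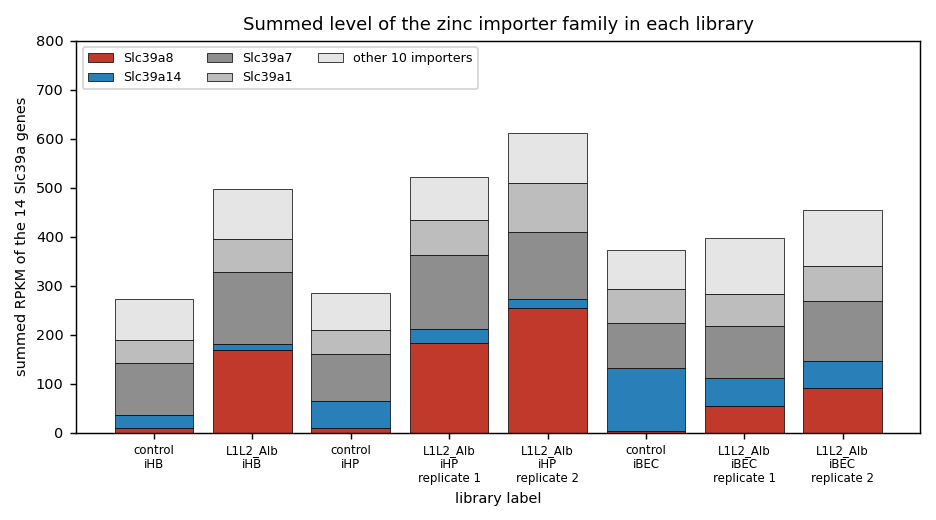
Summed RPKM of the 14 Slc39a genes in each of the 8 libraries, stacked by gene, with *Slc39a8* in red and *Slc39a14* in blue and the axis starting at 0. The red part is 3.73% or less of the control bars and 13.9% to 41.7% of the bars labelled L1L2_Alb.

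Of 20 further zinc genes (other importers and exporters, *Mt3*, *Mt4* and *Mtf1*), 15 had a mean of at least 1 RPKM and were tested between genotypes, and 2 passed, both lower in the libraries labelled L1L2_Alb, where 9.57% of all genes passed. These were *Mt3*, first known from brain, and *Mt4*, known from stratified epithelia. None of the 7 other importers or 5 other exporters tested passed in limma, with 3 and 2 of them at an unadjusted p under 0.05. The median log2 fold change of these 15 genes was 0.38, against 0.06 over all genes tested. The smallest adjusted p of the others was that of *Slc30a9* (0.60 on the log2 scale, standard error 0.17, adjusted p = 0.0616 by limma). *Mtf1* stood at 0.26 (standard error 0.21, adjusted p = 0.478 by limma).

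*Mt3* and *Mt4* lay below their stage control in 5 of 5 libraries labelled L1L2_Alb. For *Mt3*, control iHB held 7.71 RPKM and its counterpart 3.24 RPKM. Control iHP held 52.3 RPKM and the replicates 22.7 and 8.55 RPKM, and control iBEC held 487 RPKM and the replicates 190 and 191 RPKM. The log2 fold change was -1.44 (standard error 0.30, adjusted p = 0.0243 by limma). For *Mt4*, control iHB held 5.48 RPKM and its counterpart 0.624 RPKM, a value of 7 reads. Control iHP held 32.6 RPKM and the replicates 15.5 and 2.28 RPKM, and control iBEC held 506 RPKM and the replicates 149 and 172 RPKM. The log2 fold change was -1.94 (standard error 0.46, adjusted p = 0.0353 by limma). Both calls were lost without the second iBEC library labelled L1L2_Alb (adjusted p = 0.0541 for *Mt3* and 0.0674 for *Mt4* by limma), and that of *Mt4* also without the first (adjusted p = 0.0539 by limma). Both were also lost without a filter on low values (adjusted p = 0.0649 and 0.0945 by limma). Leaving out a stage lost that of *Mt3* each time (adjusted p = 0.077 without iHBs, 0.0536 without iHPs and 0.0715 without iBECs, by limma). That of *Mt4* was lost without iHBs (0.144) and without iBECs (0.0776), and kept without iHPs (0.0307, by limma). Each call was lost in 5 of 14 alternatives, in ranges from 0.00753 to 0.077 for *Mt3* and from 0.0087 to 0.144 for *Mt4*.

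The difference between culture stages was not used to choose the genes and could be tested. Between iBECs and iHBs, 2 of the 9 genes passed, where 5.72% of all genes did. *Slc39a8* was lower in iBECs, at -1.39 on the log2 scale (standard error 0.27, 95% interval -2.02 to -0.76, adjusted p = 0.0256 by limma with genotype as a block). *Slc39a14* was higher in iBECs by 2.18 (standard error 0.23, adjusted p = 0.0019 by limma). In the controls these were a 3.65-fold drop of *Slc39a8* and a 4.84-fold rise of *Slc39a14*, and in the means of the libraries labelled L1L2_Alb a 2.31-fold drop and a 4.72-fold rise. The call of *Slc39a8* was lost without the first iBEC library labelled L1L2_Alb (adjusted p = 0.0603 by limma) and without a filter on low values (0.0551), in a range of 0.0217 to 0.0603 over 11 alternatives.

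Between iBECs and iHPs, a comparison that shares the iBEC libraries with the one above, 2 of the 9 genes passed where 4.12% of all genes did. *Slc39a8* was lower in iBECs (log2 fold change -1.58, standard error 0.24, adjusted p = 0.015 by limma) and *Slc39a14* was higher (1.21, standard error 0.20, adjusted p = 0.0189 by limma). The call of *Slc39a8* was lost when libraries of a condition were averaged (adjusted p = 0.0544 by limma) and in the libraries labelled L1L2_Alb alone without a block (0.0638, against 0.0121 with the replicate block), in a range of 0.0121 to 0.0638 over 13 alternatives. The call of *Slc39a14* was lost in the same settings (0.0596 and 0.0883, against 0.0467 with the replicate block) and without either iBEC library labelled L1L2_Alb (adjusted p = 0.064 without the first and 0.0659 without the second, by limma), in a range of 0.0154 to 0.0883 over 13 alternatives. Every iBEC value of *Slc39a14* lay above every iHB and iHP value of its own genotype, and every iBEC value of *Slc39a8* lay below them.

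Of the 4 metallothioneins, *Mt3* and *Mt4* were higher in iBECs than in iHBs and *Mt1* and *Mt2* did not pass. *Mt3* was higher by 5.67 on the log2 scale (standard error 0.37, adjusted p = 6.12e-04 by limma) and *Mt4* by 6.51 (standard error 0.57, adjusted p = 0.00115 by limma). Against iHPs, *Mt3* was higher by 3.51 (adjusted p = 0.00487) and *Mt4* by 4.27 (adjusted p = 0.0076 by limma). In the controls *Mt3* rose 63.2-fold and *Mt4* 92.3-fold from iHB to iBEC, from 118 to 8705 reads and from 61 to 6577 reads. *Mt1* had a value of 1.41 (standard error 0.37, adjusted p = 0.0659 by limma) and *Mt2* of 1.61 (standard error 0.56, adjusted p = 0.138 by limma). Both passed without the second iHP library labelled L1L2_Alb (adjusted p = 0.0348 and 0.0293 by limma). In that setting 1747 of 13509 genes passed, in place of 768 of 13421, though the library left out is on neither side of this comparison. *Mt1* also passed with upper-quartile scaling (0.0445), with a minimum mean of 5 RPKM (0.0466) and with eBayes without trend (0.044), and *Mt2* with averaged libraries (0.039), in ranges over 11 alternatives from 0.0348 to 0.324 and from 0.0293 to 0.447.

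**Figure D3:**
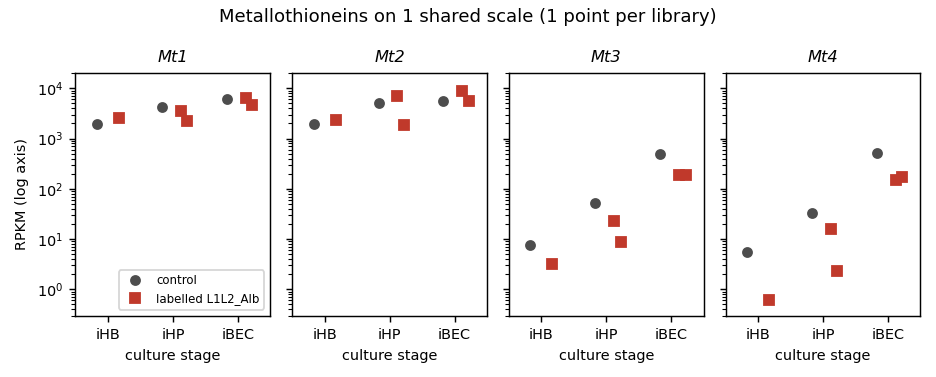
RPKM of *Mt1*, *Mt2*, *Mt3* and *Mt4* in the 8 libraries on 1 log axis, by culture stage, with 1 point per library, dark circles for control and red squares for libraries labelled L1L2_Alb. *Mt1* and *Mt2* stay between 1868 and 8946 RPKM, while *Mt3* and *Mt4* go from at most 7.71 RPKM in iHBs to at least 149 RPKM in iBECs.

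*Mt4*, *Mt3*, *Mt2* and *Mt1* follow each other in that order on one chromosome, as the positions of their promoters above show. *Mt3* and *Mt4* had a Pearson r of 0.99 over the 8 libraries, and *Slc39a14* had an r of 0.95 with *Mt3* and 0.96 with *Mt4* (log2 values, 8 libraries that share stages and genotypes). The biliary marker sum, most of it *Spp1*, and the endothelial sum were also higher in iBECs. The endothelial sum was at 20.2 to 23.6 RPKM in iBECs against 2.78 to 9.39 RPKM in the other stages. Of its 5 markers, 4, 4 and 3 were under 1 RPKM in control iBEC and in iBEC replicates 1 and 2 labelled L1L2_Alb. The part of either sum in these differences was not tested.

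The remaining members did not pass in either comparison with iBECs. From iHB to iBEC the log2 fold change was 0.78 for *Slc39a4* (95% interval 0.21 to 1.36, adjusted p = 0.115 by limma), 1.03 for *Slc30a10* (0.32 to 1.73, adjusted p = 0.0987 by limma) and 1.18 for *Slc39a5* (-0.27 to 2.62, adjusted p = 0.277 by limma). *Slc39a4* passed against both stages when the libraries were scaled by their upper quartile (adjusted p = 0.0395 against iHB and 0.0411 against iHP, by limma) or normalized by quantiles (adjusted p = 0.0272 and 0.0392 by limma). *Slc39a5* passed against iHPs in the libraries labelled L1L2_Alb alone, at 2.33 on the log2 scale (adjusted p = 0.014 by limma, and 0.00358 with the replicate block). In these settings 457 and 911 of 13421 genes passed, and the block pairs libraries that share only a number. The controls went the other way, at 1.59 RPKM in iBEC and 2.43 RPKM in iHP. For *Slc39a10* and *Slc30a1* the values against iHBs were 0.61 (-0.34 to 1.56) and -0.89 (-2.52 to 0.73). The median log2 fold change of the 9 genes from iHB to iBEC was 1.03, against -0.25 over all genes tested.

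**Figure D4:**
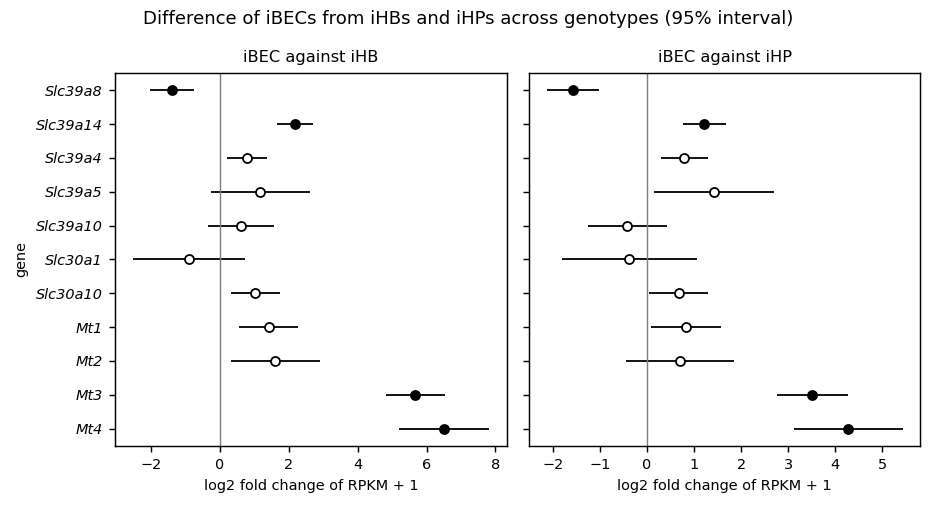
Log2 fold change of RPKM + 1 of iBECs against iHBs (left) and against iHPs (right), across genotypes, for the 9 genes and *Mt3* and *Mt4*, with 95% intervals and filled points where the adjusted p from limma was under 0.05. *Slc39a8* is the only filled point below 0 in each panel (-1.39 and -1.58), and *Mt3* and *Mt4* lie farthest above 0.

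Between iHPs and iHBs, none of the 9 genes passed in limma, nor did any other gene (0% of 13421, with 1158 at an unadjusted p under 0.05). Of the 9 genes 2 were at an unadjusted p under 0.05, *Slc39a14* at 0.97 on the log2 scale (standard error 0.23, adjusted p = 0.374 by limma) and *Slc39a10* with 1.03 (standard error 0.41, adjusted p = 0.53 by limma). *Slc39a8* had a log2 fold change of 0.19 (95% interval -0.44 to 0.82), so that iHBs and iHPs were not told apart at this spread. Without the second iHP library labelled L1L2_Alb, *Mt3* was the only gene of the table to pass.

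Whether the difference between genotypes was unequal between stages was tested by an interaction. None of the 9 genes passed, and of all genes 0% did, with 733 at an unadjusted p under 0.05. The moderated F test of limma gave an adjusted p of 1 for *Slc39a8* and for *Slc39a14*. *Slc39a5* had the smallest value of the 9 genes (adjusted p = 0.359), the 1 member with an unadjusted p under 0.05. With 2 residual degrees of freedom this test can miss large differences, so a p above the threshold does not show that the effect was equal in the 3 stages.

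The 5 genes whose log2 values were most like those of *Slc39a8* over the 8 libraries were *4933401H06Rik* (Pearson r 0.999), *Cnn3* (0.990), *Serpinb9b* (0.990), *B3gnt3* (0.989) and *Wfs1* (0.988). *4933401H06Rik* is a noncoding RNA gene whose span overlaps that of *Slc39a8* in RefSeq (GRCm38.p6). The library kit does not mark strand, so that reads from sequence shared by the pair cannot be told apart. Whether their exons overlap was not checked. It was at 1.28 to 5.44 RPKM in the controls and 28.8 to 118 RPKM in the libraries labelled L1L2_Alb. The 5 genes were picked for this likeness, so a shared pattern is built in. *Serpinb9b* was at 10.5 to 65.2 RPKM in the controls and 204 to 950 RPKM in the libraries labelled L1L2_Alb. *Slc30a1* and *Slc30a10* each overlap a noncoding RNA gene as well (*1700034H15Rik* and *Gm2061*).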

How the data were processed

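RNA was sequenced with a TruSeq RNA kit (v2) that does not mark strand, in 8 libraries with 3 stages of culture. The authors deposited 1 table of values per gene and library, in RPKM as the steps of its low values show. Bowtie 0.12.2 and mm8 are in the submitters' processing notes, and the counting and annotation are not given in the sources used here. The table held 23471 entries, and 4 entries of 2 repeated symbols were left out.

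Reads per library were worked out from RefSeq genes of under 400 bases, and whole reads (tolerance 0.01) from each gene's steps for 6 of the 9 genes. *Slc39a8*, *Slc39a14* and *Slc39a5* had no such length. Depth limits only genes of a few reads. No count model was run, because the values are RPKM.

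Values were changed to log2(RPKM + 1), which understates changes of low genes. limma 3.58.1 (R 4.3.3) was run on 13421 genes, those whose mean over the libraries reached 1 RPKM (eBayes with trend, two-sided, Benjamini-Hochberg, threshold 0.05). Genotype and stage were additive terms (4 residual degrees of freedom), and their interaction was a moderated F test. The labels do not say whether libraries come from separate embryos, so p-values measure only the spread between these libraries. Members, lists and the rule for named genes (every member, other zinc genes past the threshold with *Mtf1*, and the 5 genes most like *Slc39a8*) were chosen with earlier results of these data known. Beyond the rule, *Slc30a9*, *Slc39a7*, *Slc39a6*, *Slc30a4*, *Slc30a5* and the overlapping noncoding RNA genes are named after their values were seen. The alternatives were 16 settings: another pseudocount, scaling, filter or eBayes, libraries or stages left out, libraries averaged, and L1L2_Alb libraries alone with or without a replicate block. The fit was tested on simulated data.

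Promoter sequences and their positions are RefSeq's (GRCm38.p6). The files' build is mm8, and no positions were taken from or set against it. Figures were drawn with matplotlib 3.10.9.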

Additional observations from a re-analysis of the deposited data

Results flagged for a closer look

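*Slc39a5* was set apart because both iHP libraries labelled L1L2_Alb lay below their control (mean log2 fold change -1.66) and both iBEC libraries lay above theirs (mean 1.07). The interaction over the 3 stages had an adjusted p of 0.359 in limma's moderated F test, so it failed the correction over all genes. *Slc39a4* was set apart for the same pattern at a smaller size, with a mean of -0.30 in iHPs and 0.46 in iBECs, and an adjusted p of 1 in the same test of limma. The difference between iHPs and iBECs alone was not tested for either gene, and each stage had 1 control library.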

How the results depend on the processing

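*Slc39a8* kept its direction between genotypes under all 14 alternatives, with log2 fold changes of 4.06 to 4.39, as did *Slc39a14* with -1.32 to -1.10. *Slc39a8* was chosen for a large rise in this comparison, so its kept direction is a description only. The number of zinc genes past the threshold between genotypes was 4 of the 24 tested, where 9.57% of all genes passed. The 24 include the chosen genes, so nothing is read from that number. It was 2 without a filter on low values, 1 without iHBs, 2 without iHPs, and 2 to 4 with 1 library left out. Between iHPs and iHBs it was 0 to 1 with 1 library left out, and between iBECs and iHPs 4 in all libraries and 2 when libraries of a condition were averaged. The cause was not tested. Counts did not move one way with fewer libraries: without the second L1L2_Alb iHP library, 1747 genes in place of 768 passed between iBECs and iHBs.

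The *Slc39a5* genotype value of -0.69 was -1.71 without iBECs, -0.15 without iHPs, -0.29 without iHBs and -1.89 with a pseudocount of 0.1. Small genotype differences changed sign. For *Slc39a4* (0.01) the value was -0.10 with upper-quartile scaling, -0.066 with quantile normalization, -0.000416 with averaged libraries, -0.24 without iBECs, and -0.069 to 0.080 with 1 library left out. For *Slc30a1* (0.08) it was -0.024 with upper-quartile scaling, -0.27 without iHBs and -0.33 to 0.48 with 1 library left out. For *Mt1* (-0.18) it was 0.14 with quantile normalization and 0.074 without iHPs. For *Mt2* (0.01) it was -0.11 with upper-quartile scaling, -0.089 without iHBs, -0.17 without iBECs and -0.23 to 0.34 with 1 library left out. Between iBECs and iHPs, *Slc39a10* went from -0.59 to 0.019 and *Slc30a1* from -1.11 to 0.37 with 1 library left out.

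Upper-quartile scaling moved the median of all genes between iBECs and iHBs from -0.25 to -0.004, and the share of calls that were higher from 51.4% to 73.5%, from 59.5% to 73.1% between iBECs and iHPs, and from 64.8% to 51.5% between genotypes. The deviations of same-numbered libraries were not correlated (r = -0.02 over 13421 genes), and the libraries share only a number. With only L1L2_Alb libraries, 5 zinc genes passed between iBECs and iHPs with the replicate block and 3 without it. The depth of 18436865 to 33229075 reads limits *Slc39a5* and *Mt4* at their lowest values. All of these counts and calls rest on 1 control library per stage.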

Other observations

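Of 9 genes that handle copper or manganese (*Slc31a1*, *Slc31a2*, *Atp7a*, *Atp7b*, *Atox1*, *Ccs*, *Cox17*, *Slc11a2* and *Atp2c1*), 1 passed between genotypes in limma, where 9.57% of all genes did. This was *Cox17*, the copper chaperone of cytochrome c oxidase (log2 fold change 0.86, standard error 0.19, adjusted p = 0.0317 by limma). It was at 81.0 to 93.2 RPKM in the controls and 135 to 224 RPKM in the libraries labelled L1L2_Alb. These ranges did not overlap, as was so for 12.9% of all 13421 genes tested. The median log2 fold change of the list was 0.14, against 0.06 over all genes tested.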
